A study of Homo sapiens with 30 samples.

Results

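The PAX genes PAX1 to PAX9 were examined in ChIP-seq peak lists for H3K27me3 and H3K9me3, histone marks of repressed chromatin, in HEK293T cells, which were derived from human embryonic kidney and express the SV40 large T antigen. All 9 genes were taken, out of 19794 protein-coding genes in the annotation, and each was given a window of its annotated span plus 20 kb on each side. Peaks that overlapped a window by at least 1 bp were assigned to the gene. PAX2 and PAX8, which act in the kidney, were set beside the other 7. The cells had been transfected with antisense oligonucleotides (ASOs) against a long noncoding RNA or with a negative control ASO (NC) and were collected 48 hours later. H3K27me3 was profiled in NC, upon depletion of LINC00641 (ΔLINC00641) and upon depletion of SETD5-AS1 (ΔSETD5-AS1), and H3K9me3 in NC and upon depletion of LINC00662 (ΔLINC00662). Each of these 5 groups had 3 ChIP and 3 input replicates, 30 samples in all. The authors merged the replicates before peak calling, so each group gave 1 peak list, the values below come without a replicate error, and no test between groups was made. The amounts of the targeted RNAs were not analysed here.

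PAX genes encode transcription factors that bind DNA through a paired domain and set cell fate during organ formation. PAX2 and PAX8 act together in the early kidney, PAX8 also in the thyroid. PAX5 specifies B cells, PAX6 the eye and parts of the pancreas and brain, PAX4 insulin-producing cells, PAX3 and PAX7 neural crest and skeletal muscle precursors, PAX1 and PAX9 the vertebral column, and PAX9 also the teeth. H3K27me3 is written by Polycomb repressive complex 2 and often lies over developmental regulators that a cell type does not use. H3K9me3 marks heterochromatin, repeats and zinc finger gene clusters. The peak lists do not measure expression, and whether a PAX gene was transcribed in these cells was not analysed here.

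The lists held between 60273 and 102921 peaks. The lowest local input level recovered at any peak of a list, in fragments, is called the genome-wide level. It stands for the background of the peak caller and was between 3.50 (ΔLINC00662) and 4.43 (ΔSETD5-AS1). A peak's strength is given below as fold enrichment, the fragments at its summit over the local input level, each with a pseudocount, and as the number of fragments at the summit. The median summit of a list held between 18 and 22 fragments. At the genome-wide input level, no list held a peak with fewer than 11 fragments, so weaker marking was not detectable in these lists. The absence of a peak therefore does not show the absence of the mark.

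In NC, H3K27me3 peaks lay in the windows of PAX2, PAX3, PAX4, PAX5, PAX7 and PAX8, which is 6 of 9, against 22.9% of all protein-coding genes. The same 6 windows had a peak in ΔSETD5-AS1, where the share of all genes was 23.7%. In ΔLINC00641, PAX6 joined them, giving 7 of 9 against 23.1%. A peak within 1 kb of an annotated start site, called a promoter peak here, was found for PAX2, PAX4, PAX5 and PAX7 in NC (9.57% of all genes) and in ΔSETD5-AS1 (9.50%). These 4 genes and PAX6 had one in ΔLINC00641 (10.4%). With the outermost start site of each gene alone, the numbers were 2 in NC, 3 upon ΔLINC00641 and 1 in ΔSETD5-AS1. PAX windows were long, with a median of 103 kb against 67.0 kb for all genes. Among the 14094 genes whose windows were between 47.9 and 241 kb, the range of the PAX windows, 19.6% had an H3K27me3 peak in NC. Each PAX gene has 3 or more annotated start sites, and 8.02% of the 11128 genes with at least 3 had a promoter peak in NC.

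H3K9me3 over the PAX windows and promoters in NC was near the share of all genes. In NC, 6 of 9 windows had a peak, against 54.4% of all genes, and in ΔLINC00662 7 of 9, against 46.8%. PAX9 alone had a promoter peak in NC, where 7.14% of all genes had one. No PAX gene had one in ΔLINC00662, where the share was 5.87%. With the gene span alone, 3 genes had a peak in NC and 2 in ΔLINC00662, and 4 and 1 windows had one when only peaks with −log10 q of 5 or more were taken. Over the 9 windows, 1011 kb in all, H3K27me3 peaks covered 22252 bp in NC, 25191 bp upon ΔLINC00641 and 24393 bp in ΔSETD5-AS1, and H3K9me3 peaks 8206 bp in NC and 5769 bp in ΔLINC00662.

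**Figure D1:**
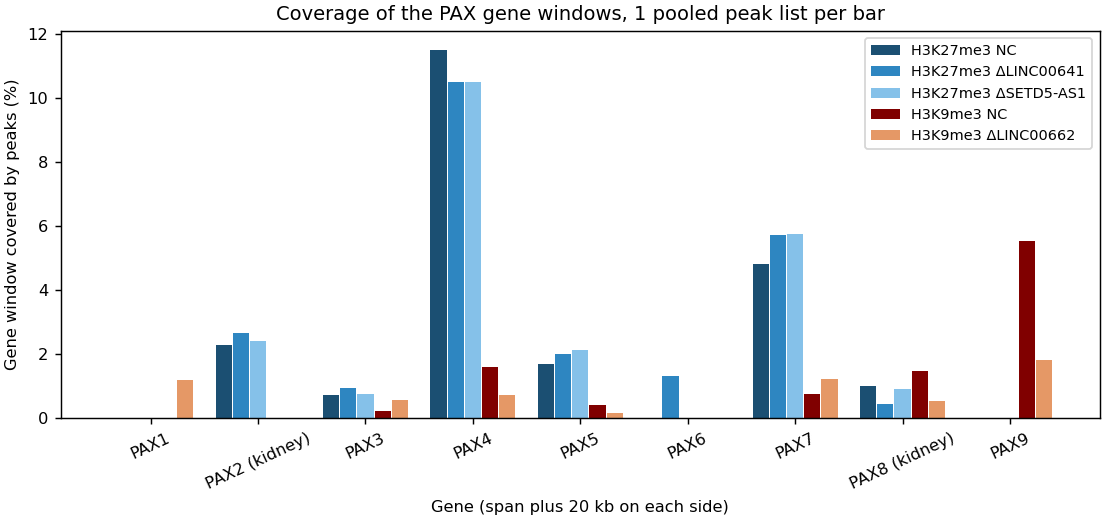
Share of each PAX gene window (span plus 20 kb on each side) covered by peaks, in percent, with 1 bar per pooled peak list and no error bars because replicates were merged. PAX4 reaches 11.5% and PAX7 4.81% for H3K27me3 in NC, PAX2 and PAX8 lie at 2.29% and 1.00%, and PAX9 carries H3K9me3 (5.52% in NC) with no H3K27me3 peak.

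The strongest H3K27me3 summits of PAX2, PAX5 and PAX7 in NC were rich in CG dinucleotides and that of PAX8 was not. H3K27me3 in mammals often lies over stretches rich in CG dinucleotides, so the 201 bases centred on the summit of the strongest NC peak are shown for these genes and for PAX3, on the forward strand of GRCh37, which has the coordinates of hg19, with each CG in capitals. The stretches are chr10:102490638-102490838 upstream of PAX2, chr9:37026459-37026659 in PAX5, chr1:18969541-18969741 in an intron of PAX7, chr2:223176938-223177138 upstream of PAX3 and chr2:114012239-114012439 in an intron of PAX8.
PAX2: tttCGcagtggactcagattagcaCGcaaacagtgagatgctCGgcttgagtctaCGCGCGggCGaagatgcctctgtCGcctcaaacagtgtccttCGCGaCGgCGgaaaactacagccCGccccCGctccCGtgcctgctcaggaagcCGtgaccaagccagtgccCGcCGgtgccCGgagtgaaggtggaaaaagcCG
PAX5: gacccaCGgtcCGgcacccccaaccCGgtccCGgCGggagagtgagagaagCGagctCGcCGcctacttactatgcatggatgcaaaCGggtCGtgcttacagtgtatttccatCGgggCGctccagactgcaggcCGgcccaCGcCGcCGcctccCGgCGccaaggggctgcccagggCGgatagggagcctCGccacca
PAX7: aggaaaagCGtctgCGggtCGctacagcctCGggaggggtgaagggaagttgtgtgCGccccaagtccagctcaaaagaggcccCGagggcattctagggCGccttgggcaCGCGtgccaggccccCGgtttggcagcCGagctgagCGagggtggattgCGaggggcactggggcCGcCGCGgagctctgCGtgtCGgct
PAX3: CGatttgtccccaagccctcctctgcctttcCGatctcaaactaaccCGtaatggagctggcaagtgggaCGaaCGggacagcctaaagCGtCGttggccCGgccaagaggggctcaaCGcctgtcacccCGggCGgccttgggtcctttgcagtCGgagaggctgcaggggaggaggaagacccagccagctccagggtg
PAX8: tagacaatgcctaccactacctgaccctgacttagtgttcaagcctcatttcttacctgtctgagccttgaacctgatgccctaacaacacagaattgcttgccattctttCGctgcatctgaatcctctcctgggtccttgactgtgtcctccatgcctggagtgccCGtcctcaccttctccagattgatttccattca
The PAX2 and PAX5 stretches each held 20 CG dinucleotides, the PAX7 stretch 18, the PAX3 stretch 12 and the PAX8 stretch 2. Over all 102398 NC summits with known sequence the median was 2, and 82.6% had at least 1. At least 20 were found at 0.118% of summits, at least 18 at 0.228%, at least 12 at 1.76% and at least 2 at 57.8%. Each summit shown held at least 25 fragments, as did 13.3% of NC peaks, and shares among summits of like strength were not calculated. Weaker summits of the same genes held fewer, down to 1 in PAX2, 1 in PAX5 and 4 in PAX7, and the weaker PAX8 summit held 1. Not every summit of PAX2 and PAX5 thus stood above those of PAX8. Over the 19 PAX peaks of NC the number ran from 0 to 20 with a median of 5. At the strongest PAX4 peak it was 5, which 16.9% of summits reached. The letters describe these windows and were not tested as a cause of the mark.

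PAX2 carried H3K27me3 upstream of the gene and around its main group of start sites, and no H3K9me3. The gene lies at chr10:102495153-102589701 on the forward strand. Its strongest peak in NC, chr10:102489850-102492051, has its summit 4415 bp upstream of the outermost start site. The fold enrichment there was 4.07 in NC, 6.75 upon ΔLINC00641 and 4.86 in ΔSETD5-AS1. The summit held 48 fragments in NC (exact 95% Poisson interval 35.4 to 63.6), 74 in ΔLINC00641 (58.1 to 92.9) and 54 in ΔSETD5-AS1 (40.6 to 70.5). These intervals cover counting error only, and those of NC and ΔLINC00641 overlap. Of 5 annotated start sites, 3 had a peak within 1 kb in NC, 2 upon ΔLINC00641 and 3 in ΔSETD5-AS1. They form a cluster that begins 10.2 kb downstream of the outermost one, which had none in any list. The strongest of the NC peaks beside them, chr10:102504431-102504718, held 42 fragments, and the 201 bases at its summit (chr10:102504455-102504655) are shown because they lie in the promoter region of the gene.
PAX2 start: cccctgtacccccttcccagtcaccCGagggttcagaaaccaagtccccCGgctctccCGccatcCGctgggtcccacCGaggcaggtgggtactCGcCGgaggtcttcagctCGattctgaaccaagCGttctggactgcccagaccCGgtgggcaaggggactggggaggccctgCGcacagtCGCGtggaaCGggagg
This stretch held 14 CG dinucleotides, a number that 0.936% of NC summits reached. The local input level was raised along the gene, from 2.33 to 4.43 times the genome-wide level at the upstream and start site peaks of the 3 lists, and its part in the peak calls was not tested. The nearest H3K9me3 peak was 255 kb from the window in NC and 128 kb in ΔLINC00662.

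PAX8 differed from PAX2 in where its peaks lay and in which marks it carried. The gene lies at chr2:113973574-114036498 on the reverse strand, and the antisense RNA gene PAX8-AS1 overlaps it. No peak of either mark lay within 1 kb of its 6 start sites in any list. In NC, H3K27me3 peaks lay at chr2:114011984-114012522 with 26 summit fragments and at chr2:114013046-114013536 with 22, both in an intron about 23 to 24 kb into the gene and both also within PAX8-AS1. ChIP-seq has no strand, so the mark cannot be assigned to either gene. ΔLINC00641 had a peak at the first of these places alone (25 fragments) and ΔSETD5-AS1 at the second alone (25 fragments). The second NC peak overlapped an H3K9me3 peak of NC, chr2:114012941-114013527 with 23 fragments. These 482 bp were the only bases in the 9 PAX windows covered by peaks of both marks in NC. The −log10 q of the overlapping peaks was 2.93 for H3K27me3 and 3.87 for H3K9me3, and with a −log10 q of at least 5 no bases carried both marks. The 201 bases at that H3K27me3 summit (chr2:114013350-114013550) are shown because that summit lies in the shared bases.
PAX8 both: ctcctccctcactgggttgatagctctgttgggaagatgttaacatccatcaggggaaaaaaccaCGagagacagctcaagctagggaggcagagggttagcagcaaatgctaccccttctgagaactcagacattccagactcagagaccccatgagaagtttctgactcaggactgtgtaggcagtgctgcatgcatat
They held 1 CG dinucleotide, a number that 82.6% of NC summits reached. The lists are averages over many cells and over alleles, so whether both marks sat on the same nucleosomes cannot be told. The other H3K9me3 peaks of PAX8 lay upstream of the gene, 18752 and 19877 bp from the outermost start site in NC and 14674 bp in ΔLINC00662. None of the 3 NC peaks had a partner in ΔLINC00662.

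The kidney genes together were covered by H3K27me3 over 1.73% of their windows in NC, 1.70% upon ΔLINC00641 and 1.76% in ΔSETD5-AS1. The other 7 together were covered over 2.35%, 2.73% and 2.61%. The kidney genes thus stood 0.62 percentage points below the others in NC, a difference of -0.62, with -1.03 and -0.86 in the knockdowns. The other genes spread far more widely than this difference, from 0 to 11.5% in NC. PAX4 and PAX7 lay above both kidney genes in each H3K27me3 list, and 3 of the other genes were at 0 in NC. PAX2 and PAX8 therefore lay inside the range of the others. With windows of 50 kb on each side the sign turned, to 0.57 in NC, 0.50 upon ΔLINC00641 and 0.60 in ΔSETD5-AS1, since PAX2 has further H3K27me3 peaks beyond 20 kb. For H3K9me3 the kidney genes were covered over 0.632% in NC and 0.229% in ΔLINC00662, and the others over 0.867% and 0.675%.

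PAX4 had the largest share of its window covered by H3K27me3 peaks in the family, with all peaks taken. Peaks covered 11.5% of its window in NC and 10.5% in each knockdown, and 2.92% of autosomal protein-coding genes were covered more in NC. Of its NC peaks, only 1, of 1010 bp, had a −log10 q of at least 5 (8.70). The others had 1.59, 2.54 and 4.61, so the NC share rests mostly on weaker peaks. In ΔLINC00641 each PAX4 peak passed that limit, with 11.2 and 9.63. The gene is short (chr7:127250346-127258196, reverse strand), and peaks lay at all 3 of its start sites in each H3K27me3 list. The strongest NC peak lies at an internal start site, and the summit there held 27 fragments in NC (17.8 to 39.3), 35 upon ΔLINC00641 (24.4 to 48.7) and 31 in ΔSETD5-AS1 (21.1 to 44.0). The intervals overlap throughout. The longest NC peak, chr7:127256394-127259990, spans 3597 bp across the outermost start site. H3K9me3 lay downstream of the gene, with 25 and 27 fragments at the NC summits.

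PAX7 had the most H3K27me3 in bases, 7596 bp in NC, 9023 bp upon ΔLINC00641 and 9067 bp in ΔSETD5-AS1. The gene lies at chr1:18957340-19075360 on the forward strand. Its strongest peak, chr1:18967738-18971241 in NC, lies in an intron 12.3 kb from the outermost start site and held 71 fragments (55.5 to 89.6), the highest number at any PAX summit in NC. The strongest peak there held 74 (58.1 to 92.9) in ΔLINC00641 and 62 (47.5 to 79.5) in ΔSETD5-AS1. In each knockdown, 1 peak spanned the place of 2 NC peaks, with a length of 5734 bp in ΔLINC00641 and 6295 bp in ΔSETD5-AS1. All 3 start sites had a peak within 1 kb in NC and ΔLINC00641, and 1 had one in ΔSETD5-AS1. H3K9me3 lay beyond the last exon, with 2 peaks in NC and 4 in ΔLINC00662. Weaker H3K27me3 peaks lay on that side too. They were chr1:19079906-19080496 in NC with 15 fragments and chr1:19075788-19076125 in ΔSETD5-AS1 with 18.

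PAX5 was marked at an internal start site and not at its outermost ones. The gene spans chr9:36833266-37034265 on the reverse strand. The peak chr9:37025359-37027532 had a fold enrichment of 6.34 in NC, the highest of any H3K27me3 peak in the PAX windows in NC, and of 4.82 in ΔLINC00641 and 3.97 in ΔSETD5-AS1. The summit fragments were 42 (30.3 to 56.8), 45 (32.8 to 60.2) and 32 (21.9 to 45.2), so the lower ratio in ΔLINC00641 came with more fragments and a local input level of 8.55 against 5.79 in NC. The internal start site was the only one of 7 with a peak within 1 kb, in each H3K27me3 list. A pair of peaks deeper in the gene, with summits 47.2 and 48.7 kb from the outermost start site in NC, was found again in both knockdowns. An intronic H3K9me3 peak at chr9:36990680-36991694 held 34 fragments in NC (23.5 to 47.5). It overlapped a ΔLINC00662 peak, chr9:36990349-36990774, with 16 (9.15 to 26.0). Their summits lay 1048 bp apart, so the numbers do not come from the same place.

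PAX3 was marked upstream of the gene and at none of its 7 start sites. The peak chr2:223176217-223177204 lies 13321 bp upstream of the outermost start site and held 33 fragments in NC (22.7 to 46.3), 31 upon ΔLINC00641 (21.1 to 44.0) and 23 in ΔSETD5-AS1 (14.6 to 34.5). Its fold enrichment was 4.05, 3.35 and 1.97, and its local input level was 7.39, 8.55 and 11.2 fragments. The ratio in ΔSETD5-AS1 was thus the lowest of the lists and the input level the highest. H3K9me3 peaks lay 7410 bp upstream in NC and 8134 bp upstream in ΔLINC00662, and they did not overlap.

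**Figure D2:**
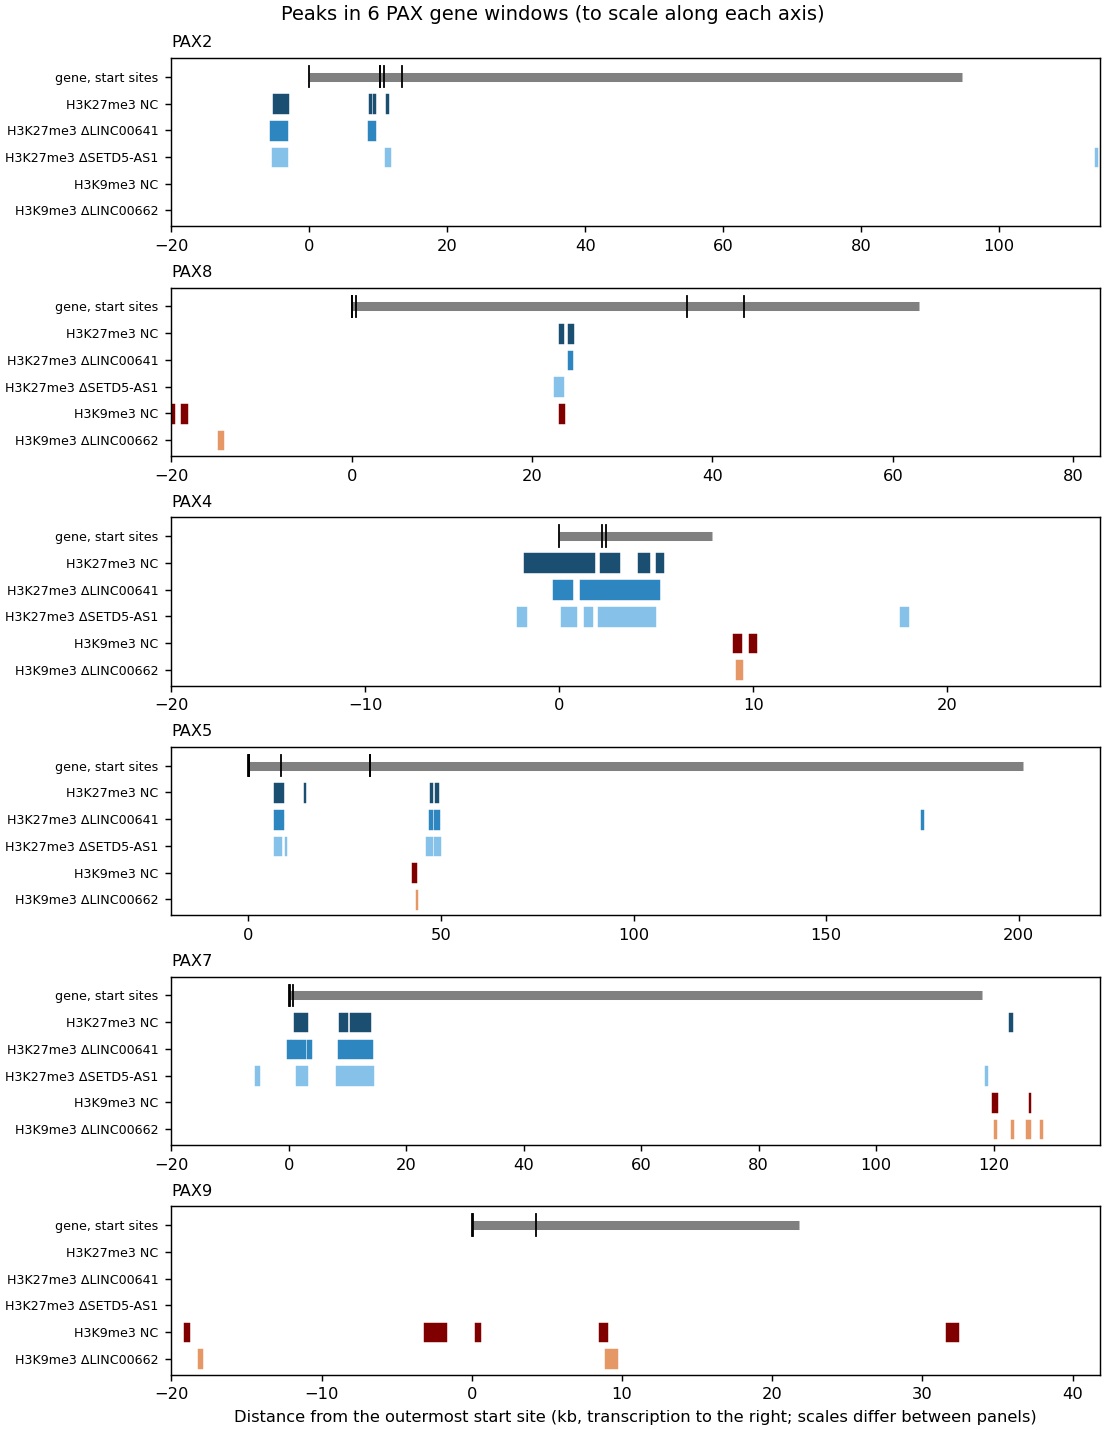
Peaks in the windows of PAX2, PAX8, PAX4, PAX5, PAX7 and PAX9, drawn to scale by distance in kb from the outermost start site with transcription to the right. The grey bar is the gene and black ticks are start sites, with 1 row per peak list. H3K27me3 peaks lie at or beside the start sites of PAX4 and, in PAX8, about 23 to 24 kb into the gene, and the PAX9 window holds H3K9me3 peaks alone.

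**Figure D3:**
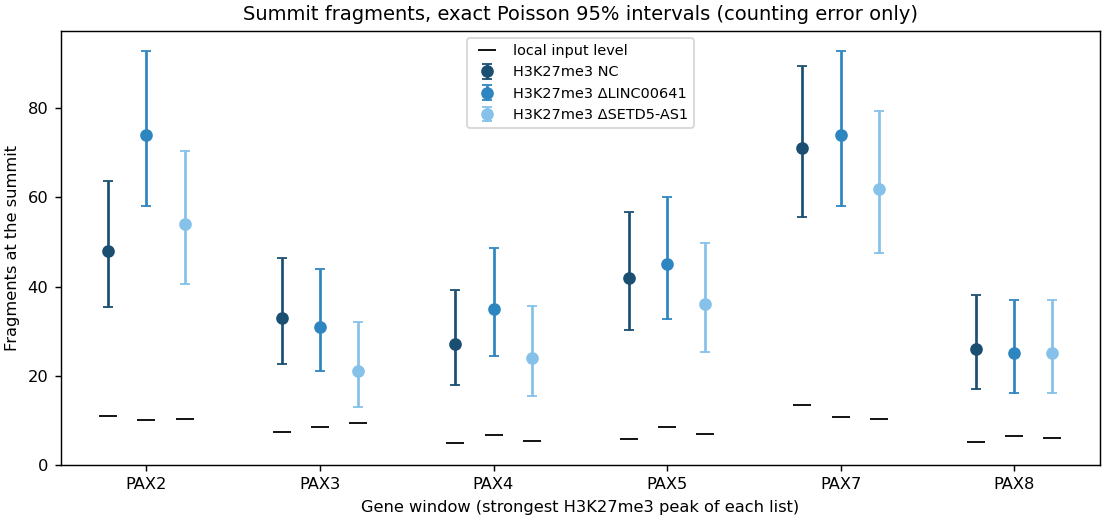
ChIP fragments at the summit of the strongest H3K27me3 peak of each PAX window with such a peak in all 3 lists (the strongest peak can lie at another place of the window in another list), with exact Poisson 95% intervals that cover counting error only. Black dashes give the local input level at the same summit. The PAX2 summit holds 48, 74 and 54 fragments and the PAX7 summit 71, 74 and 62.

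PAX1, PAX6 and PAX9 had no H3K27me3 peak in NC. The nearest one lay 96.2 kb from the PAX1 window, 1181 kb from the PAX6 window and 138 kb from the PAX9 window. In ΔSETD5-AS1 they remained without a peak, and the nearest one was 98.3, 233 and 64.6 kb away. In ΔLINC00641, PAX6 had 1 peak at chr11:31838879-31839844 with 26 fragments (17.0 to 38.1) and a fold enrichment of 2.65. It lies at the outermost start sites, within 1 kb of 4 of 45, and also overlaps the long noncoding RNA gene PAUPAR and a protein-coding gene model without a symbol. With 26 fragments at a local input level of 9.19, its fold enrichment is under the median of its list, 3.35, and its presence in 1 list and not in the others has no replicate check. PAX6 had no H3K9me3 peak in its window in either list.

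PAX9 had an H3K9me3 peak at its start in NC, of modest strength. Its −log10 q was 2.93, and with a −log10 q of at least 5 no PAX promoter had one. In NC, 5 peaks covered 5.52% of its window (6.40% of autosomal genes were covered more), and in ΔLINC00662 2 peaks covered 1.81%. The gene lies at chr14:37126773-37148567 on the forward strand. The NC peak chr14:37127016-37127307 held 30 fragments (20.2 to 42.8) at a local input level of 12.5, lay within 1 kb of 2 of 3 start sites and had no partner in ΔLINC00662. It also overlaps a long noncoding RNA gene model without a symbol. Its summit sequence (chr14:37127115-37127315) is shown because it is the one PAX start site region under H3K9me3.
PAX9 start: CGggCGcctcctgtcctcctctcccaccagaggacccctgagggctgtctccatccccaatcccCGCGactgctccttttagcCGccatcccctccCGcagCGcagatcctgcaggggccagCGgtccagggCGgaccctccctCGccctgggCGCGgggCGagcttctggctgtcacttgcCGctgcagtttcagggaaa
It held 14 CG dinucleotides, which 2.53% of H3K9me3 NC summits reached. The longest NC peak, chr14:37123577-37125078, lay 3017 bp upstream with 37 fragments, overlaps gene models of that kind and also had no partner. The peak in the body of the gene, chr14:37135250-37135783, held 30 fragments in NC and its partner 30 in ΔLINC00662. The NC peak at the far end of the window, with 22 fragments, lies within the neighbouring gene SLC25A21. PAX1 had no H3K9me3 peak in its window in NC, where the nearest was 4.39 kb outside, and 1 in ΔLINC00662 with 18 fragments (10.7 to 28.4).

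To describe the change of H3K27me3 over the PAX genes upon depletion of LINC00641 and SETD5-AS1, each list was set beside NC. The comparisons share the NC list. In ΔLINC00641, covered bases were at least 1.5-fold lower over 1 window, PAX8 (465 bp against 1030 bp, a ratio of 0.451), and at least 1.5-fold higher over 1, PAX6 (966 bp against none), of 7 windows with a peak in either list. Of all 5216 genes with a peak, 29.8% were lower and 25.7% higher by this measure. In ΔSETD5-AS1, none of 6 windows passed 1.5-fold in either direction, while 27.6% of 5357 genes were lower and 25.9% higher. A gene with a peak in only 1 of the 2 lists counts as past 1.5-fold in these shares. The 6 PAX windows had a peak in both lists, as did 3858 of all genes, and the shares among those genes were not calculated. The median ratio over the 6 PAX windows with a peak in both lists was 1.18 in ΔLINC00641 and 1.05 in ΔSETD5-AS1, against 0.933 and 0.944 over all such genes. PAX2, PAX3, PAX5 and PAX7 were covered more in both knockdowns, with ratios of 1.16, 1.34, 1.19 and 1.19 in ΔLINC00641 and of 1.05, 1.05, 1.26 and 1.19 in ΔSETD5-AS1. PAX4 and PAX8 were covered less in both, with ratios of 0.911 and 0.451 in ΔLINC00641 and of 0.908 and 0.921 in ΔSETD5-AS1. Over most of the family the change stayed below 1.5-fold, and its direction differed between members.

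Most NC peaks of the PAX windows were found again. In ΔLINC00641, 15 of 19 overlapped a peak, 78.9% (Wilson 95% interval 56.7 to 91.5), against 53.2% of all NC peaks. In ΔSETD5-AS1, 13 of 19 did, 68.4% (46.0 to 84.6), against 56.3%. The intervals take peaks as independent, which neighbouring peaks of a gene are not. PAX peaks were stronger than the list, with a median of 27 summit fragments in NC against 18, and the part of this in the share kept was not tested. Among the 7 pairs of peaks that overlapped 1 to 1 in ΔLINC00641, fold enrichment was higher in 3 and lower in 4, with a median log2 ratio of -0.19 and a range from -0.40 (PAX5) to 0.73 (PAX2). Among the 8 pairs in ΔSETD5-AS1, it was higher in 4 and lower in 4, with a median of 0.09 and a range from -1.04 (PAX3) to 0.68 (PAX5). When fragments over the genome-wide level were compared instead, the medians became 0.18 and -0.03, so the sign of neither median held. The PAX2 upstream peak kept its sign in ΔLINC00641 by that measure, with a log2 ratio of 0.65, and not in ΔSETD5-AS1, where 0.25 became -0.03.

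**Figure D4:**
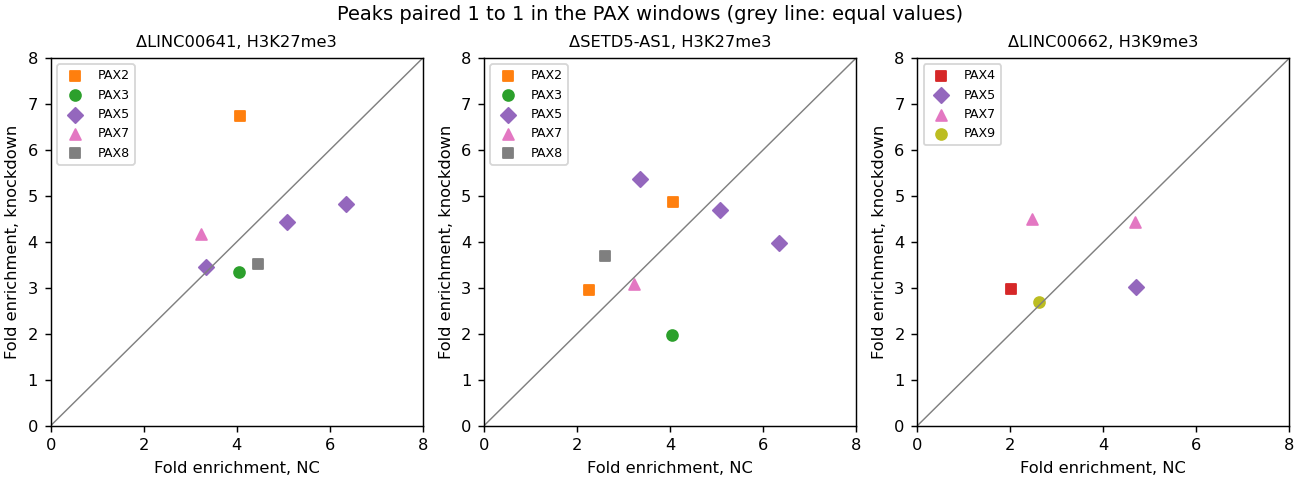
Fold enrichment of peaks that overlap 1 to 1 between NC (horizontal axis) and a knockdown (vertical axis), with 1 panel per comparison, 1 point per pair and a grey line at equal values. The PAX2 upstream peak stands furthest above the line in ΔLINC00641 (6.75 against 4.07), and the other points fall on both sides in all panels.

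H3K9me3 over the PAX genes was compared between ΔLINC00662 and NC in the same way. Covered bases were at least 1.5-fold lower over 4 of 7 windows, PAX4, PAX5, PAX8 and PAX9, with ratios of 0.446, 0.420, 0.362 and 0.328. They were at least 1.5-fold higher over 3, PAX3 and PAX7 with ratios of 2.47 and 1.61, and PAX1 (623 bp against none). Over all 11603 genes with a peak, 61.5% were lower and 12.6% higher, counting genes with a peak in only 1 of the lists. The median ratio over the 6 PAX windows with a peak in both lists was 0.433, against 0.609 over all such genes. Of the 7 windows with a peak in either list, 4 were thus lower, near the share of all genes, and 3 were higher. The ΔLINC00662 list is shorter than that of NC, with 60273 against 84170 peaks, and has a lower genome-wide level, 3.50 against 4.29 fragments. Sequencing depth was not measured here, and its part in these ratios was not tested. With equal numbers of the strongest peaks in both lists, the number of PAX peaks turned from 14 in NC and 11 in ΔLINC00662 to a ratio of 1.57. Of the 14 NC peaks, 5 overlapped a ΔLINC00662 peak, 35.7% (16.3 to 61.2), against 37.9% of all NC peaks. In the 5 pairs that overlapped 1 to 1, the median log2 ratio of fold enrichment was 0.04, from -0.64 (PAX5) to 0.87 (PAX7). The summits of the PAX5 pair lay 1048 bp apart.

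The PAX genes were set beside lists of other genes, whose difference from the PAX genes was not tested. Of 16 other genes of kidney development, 6 had an H3K27me3 peak in their window in NC (22.9% of all genes) and 3 a promoter peak (9.57%), namely RET, the receptor for GDNF in the outgrowing ureteric bud, and the signalling ligands WNT4 and WNT11. Promoter peaks were found for RET and WNT4 again in ΔLINC00641, with LHX1 and ITGA8, and for RET, LHX1 and ITGA8 in ΔSETD5-AS1. H3K9me3 peaks lay in 9 of the 16 windows in NC (54.4% of all genes) and at 3 promoters (7.14%), and in ΔLINC00662 in 7 windows (46.8%) and at 2 promoters (5.87%). Of 6 genes for subunits of the Polycomb repressive complex 2, none had an H3K27me3 peak in its window in NC (22.9% of all genes). In this set, 1 had one upon ΔLINC00641 (23.1%) and 2 in ΔSETD5-AS1 (23.7%). None of 8 ubiquitously expressed genes had one in any of these lists, against the same shares. With 6 and 8 genes, these counts were not read as a difference from those shares. HOX genes are a class of developmental regulators often under H3K27me3. Of 39 HOX windows, 1 had a peak in NC (22.9% of all genes), 1 upon ΔLINC00641 (23.1%) and 11 in ΔSETD5-AS1 (23.7%). No HOX gene had a promoter peak in any of these lists, where the shares of all genes were 9.57%, 10.4% and 9.50%. HOX genes lie in clusters and their windows overlap, so 1 peak can count for several genes. Of 6 IRX genes, 3 windows had an H3K27me3 peak in each list of that mark, with a promoter peak at IRX4. The shares of all genes with a window peak were 22.9%, 23.1% and 23.7%. As a check of the other mark, 226 of 248 zinc finger genes named ZNF on chromosome 19 had H3K9me3 in their windows in NC. That is 91.1%, against 54.4% of all genes.

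The genes most like PAX2 in covered percent over the 5 lists were WNT7B, CHST13 and HAPLN2, whose summed absolute differences from PAX2 were 0.34, 0.39 and 0.41 percentage points. Within 1 point of PAX2 lay 31 of 18868 autosomal genes. The named 3 were covered by H3K27me3 over 2.13 to 2.90% of their windows and had no H3K9me3 peak. The genes most like PAX8 were CC2D2A, SPP2 and TPH2, at 0.64, 0.83 and 0.87 points, and 6 genes lay within 1 point. These 3 carried both marks, with H3K9me3 over 1.27 to 1.45% of their windows in NC. The genes were picked by these same covered percents. Their likeness in marks to PAX2 or PAX8 was therefore set by the choice and is not a separate result.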

How the data were processed

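ChIP-seq of H3K27me3 and H3K9me3 was performed by the authors in HEK293T cells. Per the study's methods and the submitters' notes, adapters were cut with Cutadapt 3.3, Bowtie2 2.4.2 placed the reads on hg19, and the authors dropped duplicates, merged 3 replicates per group, and called peaks on ChIP against input with MACS2 2.2.7.1. The authors deposited for each peak a fold enrichment (a ratio), a −log10 p-value and a −log10 q-value. A deposited integer score was not used. Groups follow the sample titles. The track lines name 1 ASO each for LINC00641 and SETD5-AS1 and a mix for LINC00662.

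Windows and start sites of protein-coding transcripts came from GENCODE 44 lifted to GRCh37. Fold enrichment and p-value were solved for summit fragments and local input, which gave whole numbers for 100% of peaks, within 0.02 of the −log10 p. Named were all PAX genes, the strongest peak per window, the 3 genes closest to PAX2 and to PAX8, and kidney genes with a promoter peak in NC. Named beyond this rule, after their values were seen, were other peaks and the kidney genes of the knockdown lists. A further gene list is not reported here. The members and gene lists were chosen with earlier results of these data known. Alternatives were window and promoter width, peak strength, merging, list length, local input and overlap. Python 3.11.15, numpy 2.4.6, pandas 2.3.3 and scipy 1.17.1 were used, and functions were tested on simulated data.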

Additional observations from a re-analysis of the deposited data

How the results depend on the processing

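No paired analysis was possible because each list pools its 3 replicates, and for the same reason leaving out a replicate gives no value. Of 128 alternative values for 30 results, 87 stayed the same within the limits used, 31 moved and 10 changed sign or direction. Causes were not tested beyond what each alternative itself removes or adds.

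With the gene span alone, peaks fell to 11 in ΔSETD5-AS1, and for H3K9me3 to 4 in NC and 2 in ΔLINC00662, with 3 and 2 genes marked and a ratio of peak numbers of 0.500. The difference in covered percent between the kidney genes and the other PAX genes was then -1.78, -2.85 and -2.43 percentage points for H3K27me3 (NC first, then ΔLINC00641 and ΔSETD5-AS1), and -0.0000744 and -0.25 for H3K9me3 in NC and ΔLINC00662. With 50 kb on each side it became 0.57, 0.50 and 0.60 for H3K27me3, and H3K9me3 peaks rose to 24 in NC and 21 in ΔLINC00662.

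With a −log10 q of at least 5, H3K27me3 peaks numbered 10 in NC and 10 in ΔSETD5-AS1, and the ratio of ΔLINC00641 to NC turned from below 1 to 1.10. H3K9me3 peaks numbered 5 in NC with 0 promoters, and 3 in ΔLINC00662 in 1 window. The kidney difference was -0.26, -0.68 and -0.50 for H3K27me3 and -0.20 for H3K9me3 in ΔLINC00662, and 0 bp carried both marks. All 10 of the strong NC peaks (100%) were found in ΔLINC00641. The median log2 ratio of paired peaks became -0.09 over 4 pairs in ΔSETD5-AS1 and -0.07 for 1 pair in ΔLINC00662.

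With the outermost start site alone, promoters with an H3K27me3 peak numbered 2 in NC, 3 upon ΔLINC00641 and 1 in ΔSETD5-AS1. Merging peaks within 1 kb left 12 H3K27me3 peaks in NC and turned the kidney difference for H3K9me3 in NC to 0.05. With equal numbers of the strongest peaks, H3K9me3 NC had 7 PAX peaks, for a ratio of 1.57. An overlap of at least 50% left 14.3% of the 14 H3K9me3 NC peaks kept. Fragments over the genome-wide level gave median log2 ratios of 0.18 in ΔLINC00641 and -0.03 in ΔSETD5-AS1. The limit of 5 times the genome-wide level on local input removed no PAX peak, since none had a local input above 4.43 times that level, so the 13 values under it were bound to stay the same and show nothing about stability.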

Other observations

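Beyond 20 kb from PAX2, H3K27me3 peaks lay upstream of the gene in each of the 3 lists of that mark, where no annotated gene overlapped their summits. Between 20 and 50 kb from the gene there were 5 peaks in NC, 6 upon ΔLINC00641 and 4 in ΔSETD5-AS1, 1 of the last downstream. They covered 3376, 3694 and 4104 bp, more than the 3075 bp in the window of PAX2 in NC. The group furthest out included a peak at chr10:102446004-102447452 with 44 fragments in NC, at chr10:102446791-102447624 with 47 upon ΔLINC00641 and at chr10:102446124-102447459 with 48 in ΔSETD5-AS1. No H3K9me3 peak lay within 50 kb of PAX2 in either list.

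H3K9me3 lay on both sides of PAX3 beyond its window, with 5 peaks between 20 and 50 kb in NC and 4 in ΔLINC00662. On the upstream side, the peak chr2:223194382-223194735 with 29 fragments in NC overlapped one with 24 in ΔLINC00662, within the noncoding gene CT75. Downstream of PAX6, an H3K9me3 peak within ELP4 held 40 fragments in NC and 28 in ΔLINC00662. These values have no replicate error.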
